A study of Homo sapiens with 2 samples.

Results

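The genes of homologous recombination, the Fanconi anemia pathway and the S-phase checkpoint were examined in Ca9-22 cells, a human gingival carcinoma line. They were chosen by name from a list of 43 genes. Of these, 38 had at least 1 probe set whose annotation names the gene alone, among 19775 genes with such a probe set, and 36 were above the floor described below on at least 1 array. The 5 without one (BRCA2, FANCA, FANCD2, RBBP8 and ATRIP) were not analysed here, and XRCC3 and FANCB lay under both floors.

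One array came from cells stably transduced with an empty vector and 1 from cells with a vector for RUNX2, a runt-domain transcription factor. Both populations carried a vector, were selected with blasticidin for the same period and were hybridised as biotinylated cRNA of total RNA to an Affymetrix human array. The labels do not say whether a population was a clone or a pool. The comparison asks which transcripts differ between cells that carry the RUNX2 vector and the vector control. With 1 array per group there are no replicates, so neither a test nor a p-value is given, and precision is limited by the small number of arrays. A bulk array also cannot separate fewer cells of a kind from less RNA per cell.

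Homologous recombination repairs a broken DNA molecule by copying the sister chromatid, so it is active mainly in S and G2 phase. The broken ends are cut back to single strands, BRCA1 and PALB2 bring BRCA2, and the single strand then searches for the matching sequence. The Fanconi proteins handle crosslinks between the strands: a core complex attaches ubiquitin to FANCD2 and FANCI, which then recruit nucleases and recombination proteins. ATR responds to stalled replication forks and, through CHEK1, holds back the cell cycle, while ATM and CHEK2 respond mainly to breaks. Many of these genes are known targets of E2F factors, which act at the entry to S phase.

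Levels are deposited intensities in arbitrary units, with the RUNX2 array multiplied by 0.966 to equal the 2% trimmed means of the arrays. The floor is each array's own median, which was 55.3 (empty vector) and 51.8 (RUNX2, after scaling). Ratios are given on the log2 scale, RUNX2 array over empty vector array, for the brightest probe set of each gene. The only error at hand is the spread of ratios between probe sets of the same gene, with an SD of 0.293 over 6165 genes. Probe sets over the floor on at least 1 array enter it, also where the other value was raised to the floor. The SD is a spread within this pair of arrays, whether or not the probe sets of a gene detect the same transcripts, and not a replicate error.

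RUNX2 itself did not settle the labels. Its brightest probe set went from 1746 with the empty vector to 433 on the RUNX2 array, 4.03-fold lower, whereas 2 dimmer ones went from 204 to 854 and from 102 to 353. Its other 3 probe sets were below the floor on both arrays. Every direction below therefore rests on the labels, and "the RUNX2 array" means the array labelled RUNX2. The keratinocyte and squamous markers fitted the labelled line mainly by level, with a summed level of 40374 with the empty vector and 50667 with RUNX2. Of the 12 listed, all 8 with a probe set of their own were measured, but so were 12729 of 19775 genes. Of the markers of other cell types, 2 of 9 fibroblast, 3 of 6 leukocyte and 2 of 6 endothelial genes were measured. The sums for these types take all genes with a probe set, also those under both floors. They were 2198 and 1787 (fibroblast), 313 and 248 (leukocyte) and 260 and 208 (endothelium) on the empty vector and RUNX2 arrays. COL1A1 made up most of the fibroblast sum, at 1937 and 1553. The part of these differences in the results was not tested.

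The promoters of the 4 measured genes with the highest ratios and the 2 with the lowest, among those with a promoter in the table used, are shown because they let the ratios be read beside the motifs of cell cycle transcription. They come from RefSeq (GRCh38.p14) and run from 250 bases before the annotated start to 30 bases after it, 5′ to 3′ on the gene's strand. Capitals mark matches on either strand to TTCCCGC or TTGGCGC or TTCGCGC (bound by E2F), TTTGAA (the cell cycle homology region, CHR), CCAAT (bound by NF-Y) and TGTGGT (bound by RUNX factors). A match is a description of letters and not a shown site. The sequences are CHEK1 at chr11:125625979-125626258 (plus strand), BRIP1 at chr17:61863499-61863778 (minus), TIPIN at chr15:66386688-66386967 (minus), BLM at chr15:90717096-90717375 (plus), ATM at chr11:108222817-108223096 (plus) and BARD1 at chr2:214809654-214809933 (minus).
CHEK1: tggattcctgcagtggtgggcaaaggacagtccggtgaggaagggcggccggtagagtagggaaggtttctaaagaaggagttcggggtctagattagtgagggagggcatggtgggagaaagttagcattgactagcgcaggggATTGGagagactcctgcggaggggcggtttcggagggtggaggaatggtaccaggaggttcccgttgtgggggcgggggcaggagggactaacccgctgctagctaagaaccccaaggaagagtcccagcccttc
BRIP1: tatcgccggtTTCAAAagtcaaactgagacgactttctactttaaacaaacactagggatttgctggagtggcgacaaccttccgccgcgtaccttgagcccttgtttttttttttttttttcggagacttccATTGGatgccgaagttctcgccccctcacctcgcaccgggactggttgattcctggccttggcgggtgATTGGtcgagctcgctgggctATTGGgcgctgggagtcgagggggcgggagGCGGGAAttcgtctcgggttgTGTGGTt
TIPIN: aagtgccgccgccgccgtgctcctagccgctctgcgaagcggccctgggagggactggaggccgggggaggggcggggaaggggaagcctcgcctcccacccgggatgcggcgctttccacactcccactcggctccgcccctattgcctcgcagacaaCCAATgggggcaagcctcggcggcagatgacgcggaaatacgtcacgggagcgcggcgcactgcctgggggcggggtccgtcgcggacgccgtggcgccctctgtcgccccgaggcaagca
BLM: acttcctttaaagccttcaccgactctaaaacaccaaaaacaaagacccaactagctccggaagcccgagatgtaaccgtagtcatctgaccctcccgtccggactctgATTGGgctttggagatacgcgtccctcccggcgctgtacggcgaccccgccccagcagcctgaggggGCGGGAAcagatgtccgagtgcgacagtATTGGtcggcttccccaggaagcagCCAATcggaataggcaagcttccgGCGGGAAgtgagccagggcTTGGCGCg
ATM: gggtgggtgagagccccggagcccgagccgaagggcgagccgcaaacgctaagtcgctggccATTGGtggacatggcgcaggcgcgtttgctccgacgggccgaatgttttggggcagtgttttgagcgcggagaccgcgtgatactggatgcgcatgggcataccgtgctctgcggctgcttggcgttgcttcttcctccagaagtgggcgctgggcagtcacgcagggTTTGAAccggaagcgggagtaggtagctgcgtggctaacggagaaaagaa
BARD1: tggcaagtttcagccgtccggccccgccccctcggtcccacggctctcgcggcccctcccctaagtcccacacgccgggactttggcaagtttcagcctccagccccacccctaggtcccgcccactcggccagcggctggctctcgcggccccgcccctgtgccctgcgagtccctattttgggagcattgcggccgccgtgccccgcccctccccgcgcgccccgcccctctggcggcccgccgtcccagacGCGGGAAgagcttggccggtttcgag

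In these 6 promoters the letters did not sort the higher from the lower genes. CHEK1, with the highest ratio, held 1 CCAAT match, beginning at position -105 from the start, and no E2F match. BRIP1 held an E2F match at position 3, CCAAT matches at -117, -49 and -28, a CHR match at -240 and TGTGGT at position 24. TIPIN held 1 CCAAT match at -91. BLM held E2F matches at -74, 4 and 23 and CCAAT matches at -141, -46 and -21. BARD1, among the lowest ratios, held an E2F match at position 5, nearly where BRIP1 and BLM have theirs. ATM held a CCAAT match at -188 and a CHR match at -20.

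**Figure D1:**
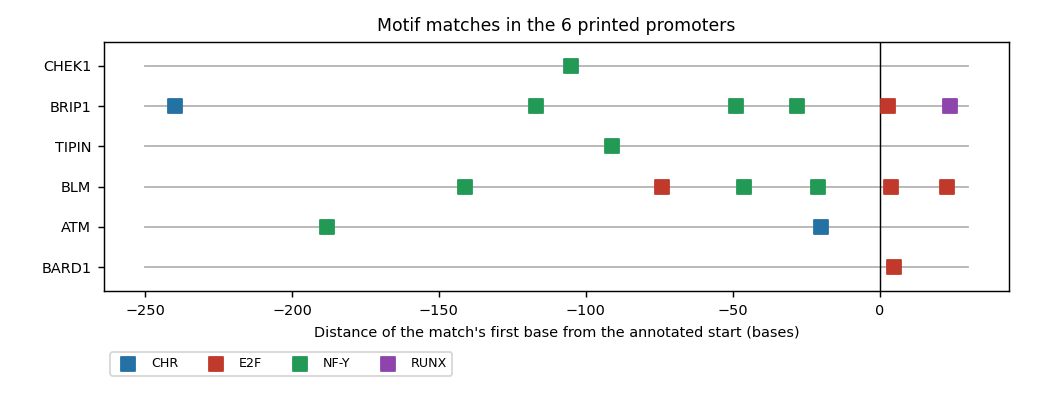
Positions of motif matches (first base of each, in bases from the annotated start) in the promoters of the 4 genes with the highest and the 2 with the lowest log2 ratios, with 1 line per promoter and colour by motif. BRIP1, BLM and BARD1 each have an E2F match within the first bases after the start, and CHEK1 and TIPIN have a single CCAAT match each.

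Across the list, E2F letters were common and CHR letters were not. A promoter was found for 38 of the 43 genes, and the first window of 300 bases listed for each gene was searched. Of these, 21 (55.3%) held an E2F match, against 17.4% of 10289 measured genes with a window and 11.2% of all 27305 genes in the table. DNA replication and G1/S genes held one in 26 of 35 promoters (74.3%) and mitotic genes in 5 of 28 (17.9%). CHR letters stood in 5 of the 38 (13.2%), against 9.81% of measured genes and 20 of 28 mitotic genes (71.4%). CCAAT stood in 21 of the 38 (55.3%), against 36.7% of measured genes. TGTGGT stood in 2, BRIP1 and TOPBP1 (5.26%), against 9.28% of measured genes. Not all of the 38 genes were measured. Of the 31 that were, 18 held an E2F match, 5 held CHR letters, 18 held CCAAT and 2 held TGTGGT. With a match counted in any window of a gene, the E2F share of the 38 was 63.2%, against 13.1% of all genes in the table. Base composition was not matched.

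Having an E2F match went with no difference in ratio inside the list. The 18 measured genes with one had a median log2 ratio of 0.20, from -0.41 to 0.66, and the 13 without one had 0.21, from -0.51 to 0.70. For CCAAT, 18 genes with a match had a median of 0.24 and 13 without had 0.14, with ranges of -0.51 to 0.70 and -0.41 to 0.46.

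The list as a whole stood slightly higher on the RUNX2 array, without any large difference. The median log2 ratio of the 36 measured genes was 0.22, with the middle of the list between -0.02 and 0.40, whereas the median of all 12729 measured genes was -0.06. Ratios were above 0 in 26 of the 36 (72.2%), against 42.6% of all measured genes, and in 25 of the 35 that exceeded both floors. None of the 36 was at least 2-fold higher or at least 2-fold lower, where 1.41% and 1.47% of all measured genes were. At 1.5-fold, CHEK1 and BRIP1 were higher (2 of 36, 5.56%) and none was lower, against a background of 5.77% higher and 6.85% lower. The count of higher genes is thus at the background, and the higher median came from many small ratios. Of the 36, 12 were higher by more than the spread between probe sets (33.3%, against 16.8% of all genes), 2 were lower by more than it (5.56%, against 23.4%) and 22 lay within it. The 12 include CLSPN, which was over the floor on the RUNX2 array alone. Its ratio could therefore lie below 0 by no more than the gap between the floors. The shares of all genes include such bounds too.

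These counts depended on scaling and on how probe sets were combined. With equal medians, 8.19% of all measured genes were at least 1.5-fold higher and 4.74% lower, 4 of the 36 were higher (BRIP1, BLM, CHEK1 and TIPIN) and 31 were above 0. The share of all genes above 0 was not computed in this setting. The median of all genes was 0.03 in it, against -0.06 in the main setting, and the list stood 0.28 higher in both. No gene of the list remained at 1.5-fold with a floor at the 75th percentile, with the floor value added as an offset or with the mean over probe sets. Of all measured genes, 5.82%, 3.84% and 5.06% were at least 1.5-fold higher in these settings. On the deposited scale 3 genes of the list were higher (BRIP1, CHEK1 and TIPIN), against 7.0% of all genes. Without probe sets ending in _x_at or _s_at, 3 of 27 were higher (BRIP1, ATR and CHEK1), against 5.97%. Just inside the 1.5-fold rule stood BRIP1 at 1.58-fold, and just outside it TIPIN at 1.48-fold and BLM at 1.42-fold.

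**Figure D2:**
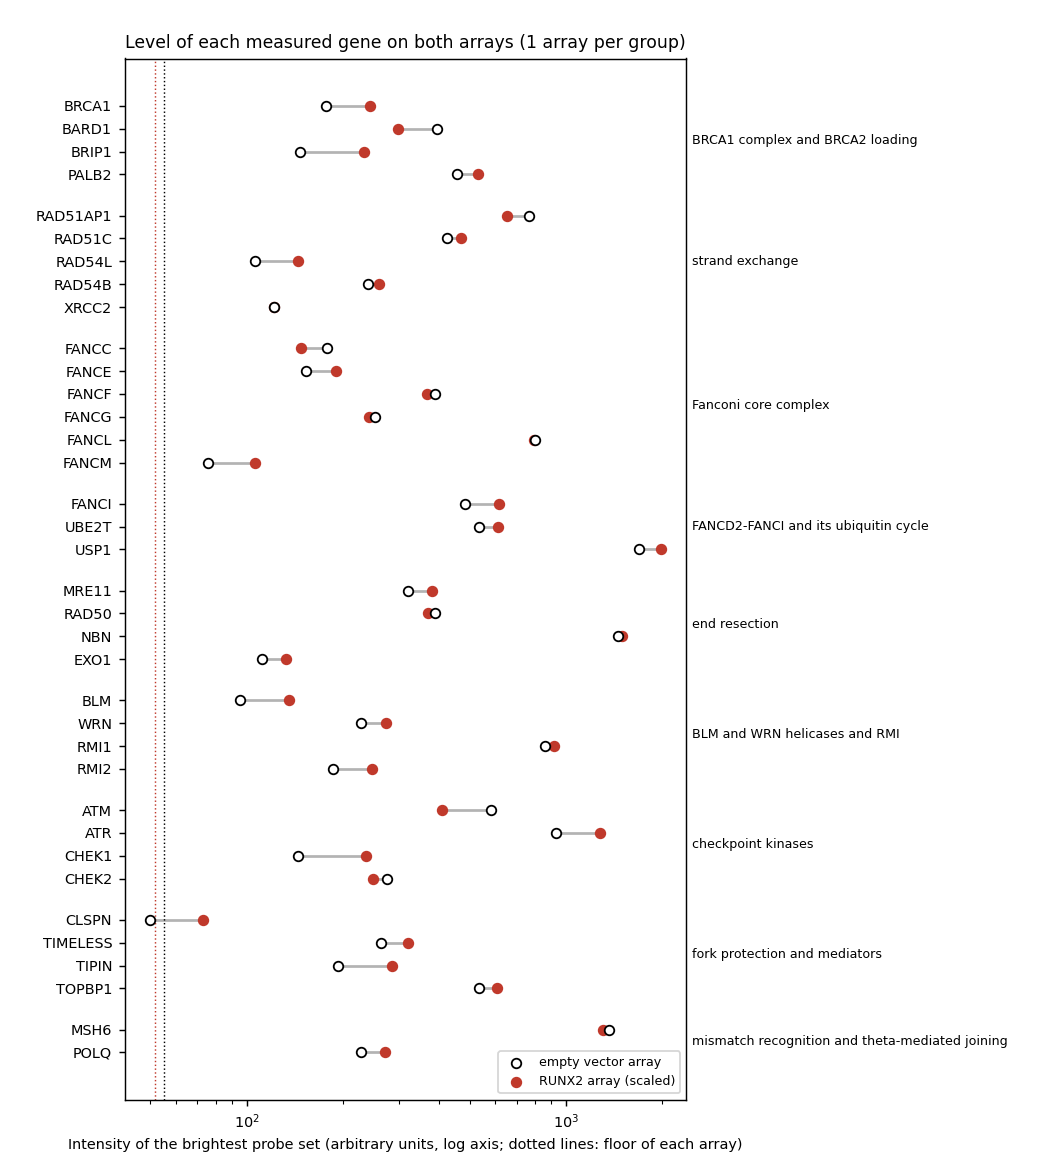
Intensity of the brightest probe set (arbitrary units, log axis) of each of the 36 measured genes on the empty vector array (open) and the scaled RUNX2 array (filled), grouped by role, with the floors dotted. The widest gaps are those of CHEK1, BRIP1 and TIPIN, all to higher levels. ATM and BARD1 have the widest gaps to lower levels, and CLSPN starts under the floor.

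BRCA1 and its partners did not share a direction. BRCA1, which with BARD1 forms a ubiquitin ligase that promotes recombination, read 177 with the empty vector and 243 with RUNX2, a log2 ratio of 0.45 (in this order below). Its other probe set was dimmer and went the opposite way, from 78.8 to 66.6 (-0.24), so the mean over both was 0.11. BARD1 was lower in all 3 of its probe sets, from 395 to 297 in the brightest (-0.41), from 400 to 279 (-0.52) and from 144 to 110 (-0.39).

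Among genes of the list with 2 or more probe sets over both floors, BARD1 was the only one below 0 in each. BRIP1, the helicase that binds BRCA1 and is also a Fanconi protein, went from 147 to 233 (0.66, higher than 95.7% of all measured genes). Its other probe set was under the floor with the empty vector and barely over it with RUNX2 (27.5 and 52.6), which gives no direction against the floor. PALB2, which links BRCA1 to BRCA2, read 456 and 529 (0.21).

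Genes of strand exchange were close to level, apart from RAD54L. RAD54L, a DNA translocase of recombination, read 106 and 145 (0.46). Its relative RAD54B read 240 and 259 (0.11). RAD51C, which acts in strand exchange and is also a Fanconi gene, read 424 and 468 (0.14), and 167 and 208 (0.32) in its other probe set. XRCC2, which acts in the same step, was 122 on both arrays (0.01), and XRCC3, a partner of RAD51C, was just under the floor on both, at 49.9 and 49.8. RAD51AP1, which promotes strand invasion, was the lower member here, at 767 and 654 (-0.23), within the spread between probe sets.

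The Fanconi core complex was split, with 2 of 6 measured genes above 0 and a median of -0.04. FANCM, the DNA translocase that anchors the complex, read 75.6 and 106 (0.49), but 74.0 and 76.2 (0.04) in another probe set. FANCE, which binds FANCD2, read 154 and 190 (0.30). FANCC was lower at 178 and 148 (-0.27). FANCL, the ubiquitin ligase subunit, read 801 and 795 (-0.01), and the scaffold FANCG read 253 and 241 (-0.07). FANCF, an adaptor of the complex, had -0.09 in its brightest probe set and 0.30 in the other. FANCG, FANCF and FANCL came to lie at or above 0 with equal medians, as did RAD50 and MSH6, so no direction is read for these genes.

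The ubiquitin cycle of the pathway lay above 0 in all 3 measured genes. FANCI, a substrate of the core complex, read 482 and 618 (0.36) in its brightest probe set and 345 and 347 (0.01) in the next. UBE2T, the conjugating enzyme that works with FANCL, read 536 and 614 (0.20). USP1, the protease that removes the ubiquitin again, read 1697 and 1981 (0.22), and its dimmer probe set read 188 and 291 (0.63). The probe sets of USP1 thus agreed in sign and not in size, and the second of FANCI was level.

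End resection genes differed little. MRE11, the nuclease, read 320 and 380 (0.25), while a dimmer probe set fell under the floor on the RUNX2 array, from 63.3, a bound of -0.29 in the opposite direction. Its partner RAD50 had -0.08 in its brightest probe set, at 390 and 369, and -0.33 and 0.11 in others. NBN, the remaining subunit, was nearly level, at 1456 and 1493 (0.04), with ratios of 0.08 to 0.19 in 3 other probe sets. The long-range exonuclease EXO1 read 112 and 133 (0.24).

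Of the BLM dissolvase, which takes recombination intermediates apart, BLM, RMI1 and RMI2 were above 0 and the topoisomerase subunit TOP3A, which is not on the list, was not, with -0.09 and -0.24 in its 2 probe sets over both floors. BLM, its helicase, read 95.6 and 136 (0.51). RMI2 read 186 and 247 (0.41) and RMI1 859 and 919 (0.10), the latter within the spread between probe sets. WRN, a related helicase outside this complex, read 228 and 273 (0.26). BLM, RMI1, RMI2 and WRN each had 1 probe set above the floor, so there is no second reading of them.

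The checkpoint kinases held both the highest and the lowest ratio of the list. ATR, the kinase of stalled forks, read 933 and 1282 (0.46) and, in another probe set, 286 and 460 (0.68). ATM, the kinase of double-strand breaks, read 583 and 410 (-0.51), the lowest ratio of the list, with -0.31, -0.20 and 0.10 in 3 dimmer probe sets. The probe sets of ATR thus lay above all those of ATM.

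CHEK1, the effector kinase downstream of ATR, had the highest ratio and the least agreement. Its brightest probe set read 145 and 236 (0.70). A dimmer one read 66.1 and 170 (1.36, 2.57-fold higher), and another went from under the floor, at 38.9, to 79.0, at least 0.52. In contrast, the remaining one read 198 and 81.1 (-1.29, 2.44-fold lower). Thus 3 readings pointed up and 1 down, and the mean over all 4 was 0.32. Which transcripts each probe set detects was not tested. CHEK2, the effector of ATM, read 276 and 249 (-0.15), within the spread between probe sets.

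Of the fork protection and mediator genes, 3 were over both floors and above 0, and CLSPN gave only a bound. TIPIN, which with TIMELESS stabilises stalled forks, read 194 and 286 (0.56). TIMELESS read 263 and 320 (0.29). CLSPN, the adaptor through which ATR activates CHEK1, was at 50.0 with the empty vector, under the floor, and at 72.9 with RUNX2, a bound of at least 0.40. CLSPN was measured through the RUNX2 array alone, so its ratio could lie below 0 by no more than the gap between the floors. Its other 3 probe sets were under both floors. TOPBP1, the activator of ATR, read 536 and 609 (0.18). Other genes of the same branch, which are not on the list, lay on both sides of 0, with -0.10 for the ATR activator ETAA1, -0.09, 0.05 and 0.29 for the clamp subunits RAD9A, RAD1 and HUS1 and 0.03 for the clamp loader RAD17.

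MSH6, which recognises base mismatches, was level at 1360 and 1305 (-0.06), with 0.12 in another probe set. POLQ, the polymerase of an error-prone end-joining route, read 228 and 272 (0.26) and, in its dimmer probe set, 88.7 and 127 (0.52).

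**Figure D3:**
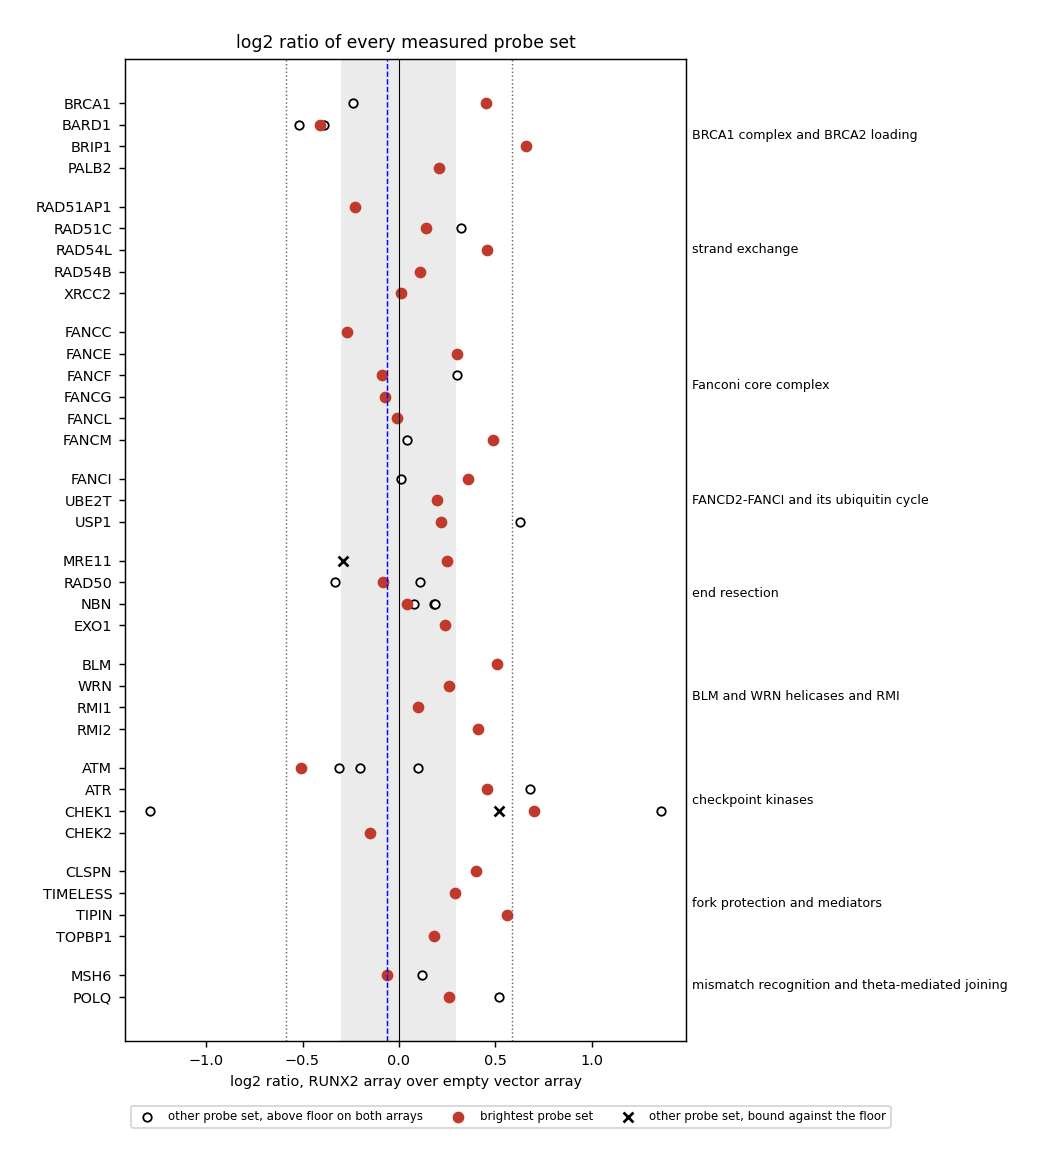
Plotted are log2 ratios (RUNX2 array over empty vector array) of the measured probe sets of each gene, except 2 whose bound gives no direction, with the brightest probe set filled. The grey band is the spread between probe sets of a gene (SD 0.293), the dashed line the median of all measured genes (-0.06) and the dotted lines 1.5-fold. CHEK1 spans -1.29 to 1.36, and the 3 probe sets of BARD1 lie together below 0.

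Repeated readings agreed in sign for some genes of the list and not for others. How often they agree over all genes was not computed, so the split is not read as a trait of the list. Of 14 genes with 2 or more probe sets over both floors, 7 were above 0 in all (RAD51C, FANCM, FANCI with 1 probe set at 0.01, USP1, NBN, ATR and POLQ), 1 was below 0 in all (BARD1) and 6 were mixed (BRCA1, FANCF, RAD50, ATM, CHEK1 and MSH6). Over single probe sets that exceeded both floors, 39 of 56 (69.6%) were above 0, against 46.5% of 21459 such probe sets with 1 gene symbol.

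Apart from 9 end-joining genes, whose median of 0.22 equalled that of the list, the rest of the repair machinery was mostly level. Single genes stood apart in both directions. Of 37 other measured recombination and Fanconi genes, 21 were above 0, with a median of 0.03. MCM8, a helicase subunit of recombination, had 0.61 (56.8 and 87.0), while the annealing protein RAD52 had -0.62 (108 and 70.1) and the crosslink nuclease FAN1 had -0.60 (728 and 479), with -0.80 and -0.24 in its other probe sets. Of 26 damage sensing genes, 10 were above 0 and the median was -0.10. CDC25A, the phosphatase that CHEK1 targets for destruction, had 0.67, and the deubiquitinase BRCC3 had 0.62, with 0.52 to 0.59 in 3 other probe sets.

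Of 9 end-joining genes, 5 were above 0 (median 0.22), with none at 1.5-fold and PRKDC, the catalytic subunit of DNA-PK, highest at 0.41. In mismatch repair 4 genes were measured (median 0.01), and PCNA, the sliding clamp shared with replication, read 1410 and 2382 (0.76). Of 25 excision repair genes, 11 were above 0 (median -0.07). FEN1, the flap nuclease of Okazaki fragments, was 2.31-fold higher (1.21, and 1.20 in its other probe set). LIG3, a ligase, had -0.92, with -0.77 and -0.73 in other bright probe sets and -0.20 and -0.07 in the dimmer ones, and PARP2 had -0.64. Of 11 translesion genes, 5 were above 0 (median -0.14), with the helicase-like HLTF lowest at -0.85 (1254 and 695).

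The list stood between the replication genes and the mitotic genes. DNA replication and G1/S genes had a median of 0.42 over 40 measured genes, with 16 at least 1.5-fold higher (40.0%), 5 of them at least 2-fold, and none lower. The mitotic genes had a median of -0.10 over 33 genes, with 12 above 0 and none at 1.5-fold either way. With 1 array per group the differences between these lists have no test, and the part of the cell cycle distribution of the cells in the ratios of the recombination genes was not tested.

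**Figure D4:**
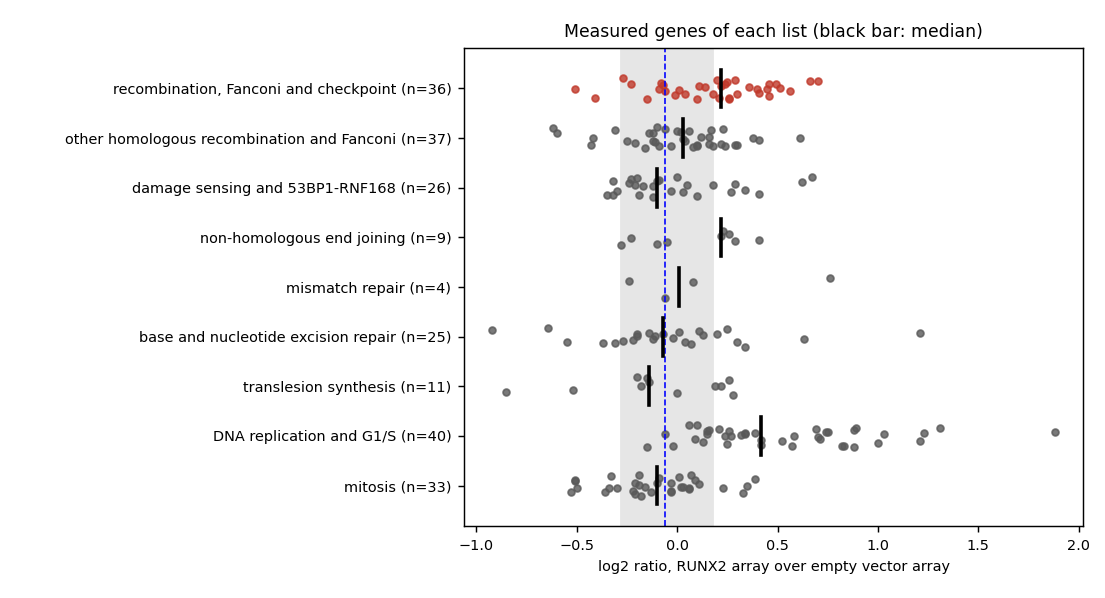
Plotted are log2 ratios (RUNX2 array over empty vector array) of the measured genes of each list, 1 point per gene with a black bar at the median, beside the median (dashed) and interquartile range (grey) of all 12729 measured genes. The recombination, Fanconi and checkpoint genes (median 0.22) lie between replication genes (0.42) and mitotic genes (-0.10).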

How the data were processed

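The values are the authors' deposited linear intensities, 1 for each of 54675 probe sets on each array. MAS5 is named in the submitters' processing notes, with no version or scaling target given in the sources used here, so the units are arbitrary. Detection calls were not used here. Control probe sets (62) were removed, the RUNX2 array was scaled by 0.966 so that the 2% trimmed means matched, and values under the floor were raised to it, which makes the ratio a bound. Probe sets were named by the platform annotation, updated by Entrez ID through a RefSeq table (GRCh38.p14), and those with several symbols named no gene. The brightest measured probe set stood for its gene. All members are named, and in the other lists some of the 4 genes with the widest ratio. TOP3A, ETAA1, RAD9A, RAD1, HUS1 and RAD17 were named outside that rule, beside members of the same complex or branch. Members and lists were chosen with earlier results of these data known, so no count here is independent support. Genes were counted at 1.5-fold and 2-fold. Alternatives changed the scaling, the floor and the choice of probe set. Python 3.11.15, pandas 2.3.3 and statsmodels 0.14.6 were used, and the scripts were tested on simulated data.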

Additional observations from a re-analysis of the deposited data

How the results depend on the processing

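No paired analysis was possible because each group has 1 array, and no array could be left out. The median of the measured genes of the list stayed above that of all genes, by 0.20 to 0.31 on the log2 scale, in the main setting and all 12 alternatives for which it was computed. None of them put a gene of the list at 2-fold either way or at 1.5-fold lower. The count at least 1.5-fold higher, 2 in the main setting, was 4 with equal medians. It was 3 on the deposited scale and 3 without probe sets ending in _x_at or _s_at. It was 0 with a floor at the 75th percentile, with the floor value added as an offset and with the mean over probe sets. The shares of all genes in these settings are given above. The floor at the 75th percentile left 28 measured genes, and an offset narrows the ratios of low genes by construction. For single genes, 421 values moved by less than the spread between probe sets and 15 by more. Taking 1 of the dimmer probe sets of CHEK1 by itself turned it to -1.29. This alternative, and the restriction to probe sets over both floors, were added after seeing the data. The mean over probe sets for BRIP1 (0.29) includes the bound that gives no direction. Signal near the floor limits CLSPN, FANCM and BLM most.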

Other observations

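Probe sets that name 2 genes were kept out of the comparison. Those naming ATRIP, the partner of ATR, together with the exonuclease TREX1 read 328 with the empty vector and 379 with RUNX2 (log2 ratio 0.21), 165 and 195 (0.24), and 62.4 and 63.5 (0.03). Those naming RAD54B together with FSBP read 177 and 172 (-0.05) and 55.4 and 59.8 (0.11). None of these can be assigned to a single gene.

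Several of these genes start close to a gene on the opposite strand. With the first promoter window listed for each gene, 18 had an opposite-strand start within 1000 bases, and in 9 pairs both genes were measured, of which 3 had ratios of the same sign. The matching shares over all genes were not computed, so neither count is read as a trait of the list. NPAT, a coactivator of histone genes that starts 429 bases from ATM, read 412 and 442 (0.10), beside -0.51 for ATM. FERRY3, 421 bases from RAD51AP1, read 228 and 411 (0.85), beside -0.23 for RAD51AP1. MAP2K1, 195 bases from TIPIN, read 1451 and 1674 (0.21), beside 0.56 for TIPIN. These pairs were looked at after the ratios of the list were known.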
